A study of Mus musculus with 22 samples.

Results

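Neutrophils and monocytes, cells of the blood that can enter the brain, were followed through 10 genes known from them. These were S100a8, S100a9, Ngp, Camp, Ltf, Retnlg, Mmp8 and Mmp9 for neutrophils, and Ly6c2 and Ccr2 for monocytes. Cells that had entered the tissue and cells left in its vessels cannot be told apart by these genes. The genes were chosen by name, not by a threshold on their values, out of 56691 genes in the deposited tables. Earlier results of these data were known at that time. Counts of these genes set beside shares of all genes therefore describe them and are no independent test. Their RNA level in the CD11b+ cell preparation from mouse brain was examined in 22 libraries of 20 animals, and the question was whether blood myeloid cells are present in that preparation after neonatal hypoxic-ischemic encephalopathy (HIE), a form of brain injury around birth.

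All animals were CF-1 wildtype mice, and the labels describe the RNA as that of brain monocytes (CD11b+). CD11b is a surface integrin of microglia, macrophages, monocytes and neutrophils, so beads that carry antibody to it retain all of them. HIE animals had received both hits of the model, maternal lipopolysaccharide late in gestation and a short fall of oxygen in the first postnatal week, whereas control dams received saline and control pups normal air. The acute experiment held 4 HIE animals, all labelled M and P7, and 4 control animals, of which 2 were M and 2 were F. The study's methods place this collection a day after the hypoxia, but the labels of the 4 control animals read P8, P9, P10 and P11. The second experiment, labelled P14, held 4 HIE, 4 control and 4 Hypoxia animals, with 2 M and 2 F in each group. Nothing in the sources used here describes the Hypoxia group beyond its name. Animals share the first part of their names in pairs. In each group the 4 animals carry 2 such prefixes, and no prefix occurs under more than 1 treatment. Treatment and prefix therefore cannot be told apart. At P14 the prefixes begin with P4H or P6H. The control and HIE groups hold 2 animals of each type, whereas all 4 Hypoxia animals are P6H. Comparisons with Hypoxia are thus not balanced for this prefix type. Animals are numbered 1 to 4 within a group, and the p-values given here measure the spread between these animals. The tests treat the 4 animals as separate although they come as 2 pairs. Standard errors, intervals and p-values thus make no allowance for likeness within a pair.

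Neutrophils carry their antimicrobial proteins in granules that are filled in succession while the cell matures in the bone marrow. S100a8 and S100a9 form calprotectin, the most abundant protein complex of their cytosol, and Ngp, Camp and Ltf are packed into the secondary (specific) granules. Mmp8 and Mmp9 belong to the secondary and the gelatinase granules. Classical monocytes are known instead by surface Ly6C and by Ccr2, the receptor through which Ccl2 calls them out of the marrow and into injured tissue. In the healthy brain both cell types are rare, and microglia make up most CD11b+ cells.

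On GRCm39 the secondary granule genes lie close together on chromosome 9, Camp from 109676442 to 109678685 on the minus strand, Ngp from 110248815 to 110252086 on the plus strand and Ltf from 110848339 to 110871835 on the plus strand. S100a8 (90567118 to 90578128, plus strand) and S100a9 (90599931 to 90603071, minus strand) neighbour each other on chromosome 3. Mmp8 and Ccr2 are also on chromosome 9, Mmp9 on chromosome 2, Ly6c2 on chromosome 15 and Retnlg on chromosome 16. All are protein coding, and Mmp8 alone overlaps another annotated gene, Gm31751, on the other strand. The library kit keeps the strand, but whether the counting used it is not given in the sources used here.

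The 250 bases upstream of each annotated transcript start were searched for the letters TTGCNNAA on either strand. They are a form of the sequence bound by C/EBP factors, which include the factor that drives the secondary granule genes. A match stood upstream of 7 of the 10 genes (S100a9, Ngp, Camp, Ltf, Mmp8, Mmp9 and Ccr2), against 9.34% of 21757 protein-coding promoters of the same length. GAGGAA, the core bound by PU.1 and related factors, stood upstream of 4 of 10, against 22.9% of promoters. Windows of the granule genes whose match lay nearest to the start are printed here 5′ to 3′ in the direction of the gene, with the TTGCNNAA match of either strand in capitals. They are chr9:110248565-110248814 (plus strand) for Ngp, chr9:110848089-110848338 (plus strand) for Ltf, chr9:109678686-109678935 (minus strand) for Camp and chr9:7558207-7558456 (plus strand) for Mmp8.
Ngp: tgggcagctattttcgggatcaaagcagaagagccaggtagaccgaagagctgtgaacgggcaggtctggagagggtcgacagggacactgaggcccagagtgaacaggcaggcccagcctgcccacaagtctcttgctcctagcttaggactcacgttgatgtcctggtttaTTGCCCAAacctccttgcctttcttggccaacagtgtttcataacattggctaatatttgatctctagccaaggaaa
Ltf: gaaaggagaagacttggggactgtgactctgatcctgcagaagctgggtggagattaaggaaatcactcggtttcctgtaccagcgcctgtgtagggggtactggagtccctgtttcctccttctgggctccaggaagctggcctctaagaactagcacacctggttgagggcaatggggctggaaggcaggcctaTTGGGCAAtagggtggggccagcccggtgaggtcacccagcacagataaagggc
Camp: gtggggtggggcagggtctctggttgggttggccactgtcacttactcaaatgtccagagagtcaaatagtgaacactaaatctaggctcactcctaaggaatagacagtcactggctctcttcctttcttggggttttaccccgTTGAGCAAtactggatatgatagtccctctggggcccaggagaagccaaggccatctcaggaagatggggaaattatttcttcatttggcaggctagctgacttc
Mmp8: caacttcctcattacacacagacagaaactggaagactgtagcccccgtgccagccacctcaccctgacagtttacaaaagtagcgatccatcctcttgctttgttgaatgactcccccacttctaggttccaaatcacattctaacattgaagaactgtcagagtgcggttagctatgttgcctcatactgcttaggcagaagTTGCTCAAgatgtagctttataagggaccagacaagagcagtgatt
Counted from the base before the transcript start as -1, the match began at -77 in Ngp, -54 in Ltf, -105 in Camp and -46 in Mmp8. A match is a string of letters and not a measured site, and S100a8, Retnlg and Ly6c2 had none in this window. A link between these matches and the RNA levels was not tested.

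Library totals ran from 29751540 to 46404123 counts at P14 and from 70191584 to 83469067 in the acute experiment, so 3 counts, taken as the lowest readable level, correspond to 0.0646 to 0.101 CPM at P14 and 0.0359 to 0.0427 CPM in the acute experiment. CPM is the number of counts of a gene in every 1000000 counts of its library. Each of the 10 genes was above that level in all 20 animals. The 9 microglia genes found in the files, which include Csf1r, summed to between 13228 and 26457 CPM in 18 animals. In acute controls 1 and 2, with the prefix P6H63, the sum was 2547 and 1589 CPM, and the summed endothelial genes (1984 and 1500 CPM) and astrocyte genes (3293 and 4023 CPM) were higher than in the other 6 acute animals. Choroid plexus genes were higher in all 4 acute controls (3660 to 10290.3 CPM) than in the 4 acute HIE animals (1069 to 1985 CPM). The acute comparison is therefore given with and without this pair. At P14, 2 HIE animals had 2 libraries each, and between these the 10 genes differed by 1.02 to 1.10 times in animal 2 and by 1.02 to 1.35 times in animal 4.

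Per kilobase of transcript, S100a9 was the most abundant of the 10 genes, with a mean of 73.6 CPM per kb over the 20 animals, ahead of S100a8 with 58.3 and Ngp with 27.5. Mmp9 (14.1), Camp (10.4), Ltf (9.75) and Retnlg (6.66 CPM per kb) followed. Ly6c2 (2.32), Ccr2 (2.23) and Mmp8 (1.93 CPM per kb) came last. The ranges over animals of any gene and the next in this order overlapped. The 8 neutrophil genes together took 56.0 to 506 CPM of a library, and Ly6c2 and Ccr2 together 2.91 to 29.0 CPM. The labels call the cells monocytes. In every animal the sum of Ly6c2 and Ccr2 was far below that of the microglia genes. These are sums of 2 and of 9 genes, so they do not compare amounts of cells.

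**Figure D1:**
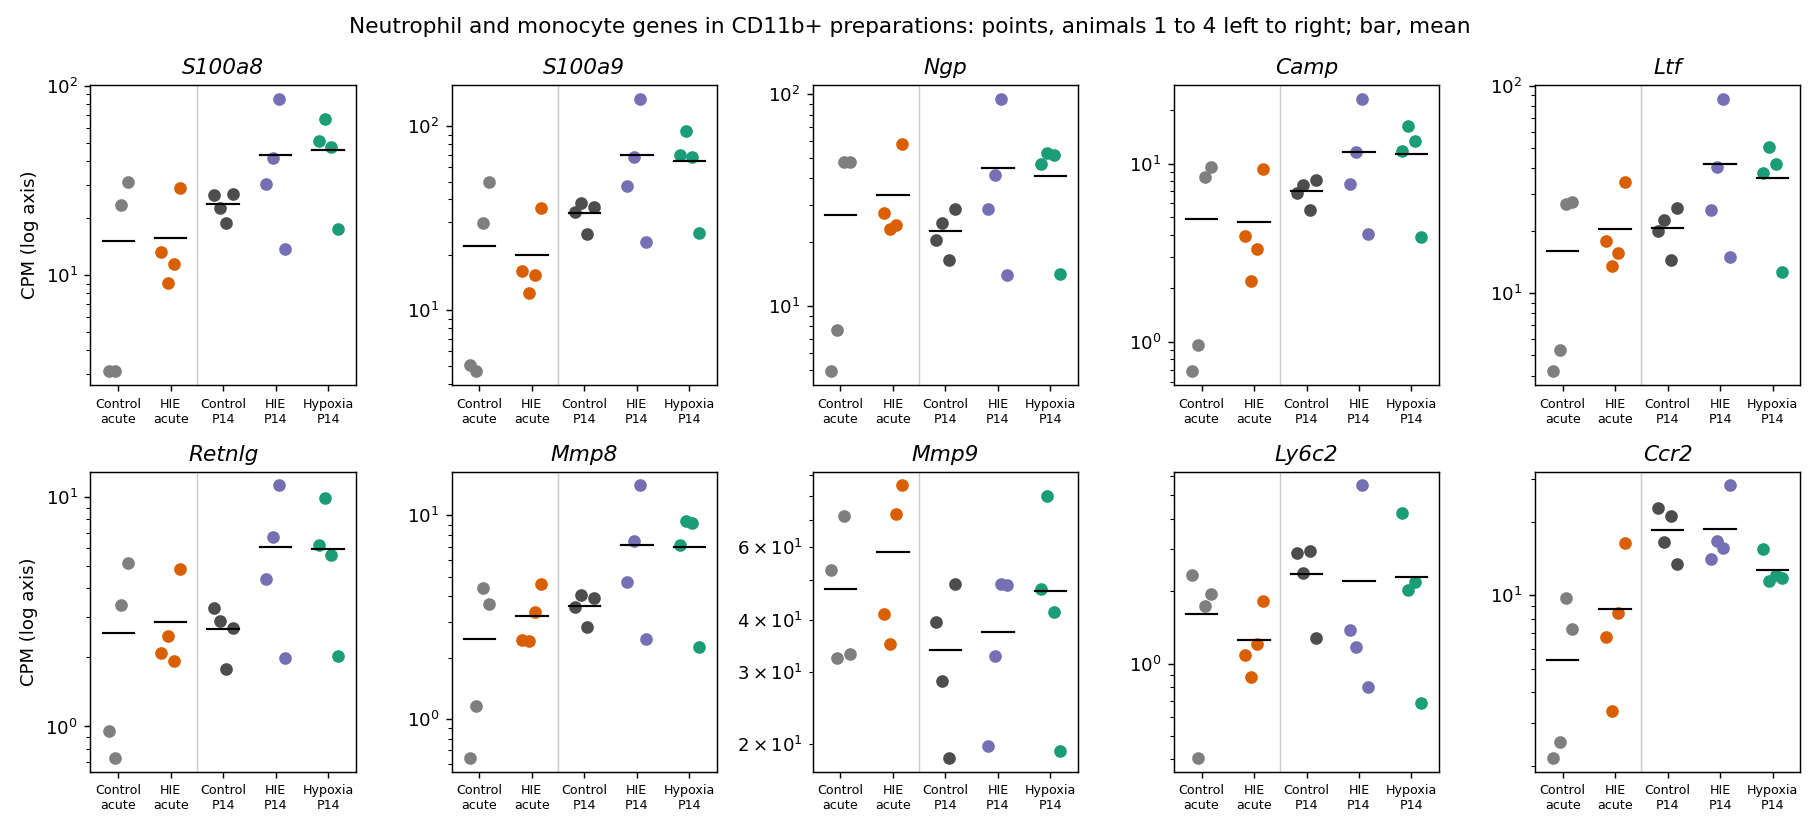
CPM of each gene on a log axis by group, where each point is an animal, points run from animal 1 to animal 4 and the bar is the group mean. Groups overlap for every gene: acute controls 1 and 2 sit lowest for most genes, and at P14 HIE animal 3 lies highest while HIE animal 4 and Hypoxia animal 4 lie low. Overlap was not counted over all genes.

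The alarmin pair S100a8 and S100a9 is released by activated neutrophils and monocytes and signals through Tlr4. S100a8 read 3.11, 3.10, 23.4 and 30.8 CPM in acute control animals 1 to 4 and 13.2, 9.04, 11.46 and 29.0 CPM in acute HIE animals 1 to 4. HIE animals 1 to 3 lay between the low and the high pair of controls, and HIE animal 4 lay between the values of the high pair. At P14 S100a8 was 26.6, 22.6, 19.0 and 27.0 CPM in controls, 30.5, 41.5, 85.6 and 13.8 CPM in HIE and 51.4, 67.1, 47.8 and 17.6 CPM in Hypoxia animals. HIE animals 1 to 3 were above every control and HIE animal 4 was below every control, and Hypoxia showed the same division of 3 above and 1 below. In bulk RNA, fewer neutrophils and less RNA per neutrophil cannot be told apart.

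S100a9 followed a similar order at a higher level. It read 34.1, 38.4, 25.9 and 36.6 CPM in P14 controls, 47.4, 68.4, 141 and 23.5 CPM in HIE and 70.0, 93.6, 67.6 and 26.3 CPM in Hypoxia animals. In the acute experiment the values were 5.06, 4.66, 29.8 and 49.6 CPM in controls and 16.4, 12.4, 15.50 and 35.8 CPM in HIE animals. The controls thus enclosed the whole HIE group, with a highest-to-lowest ratio for S100a9 over the 20 animals of 30.3.

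Among the secondary granule genes, Ngp (neutrophilic granule protein, a cystatin-like protein) read 4.90, 7.68, 47.6 and 47.9 CPM in acute controls and 27.5, 23.0, 24.0 and 58.5 CPM in acute HIE animals, of which animal 4 was the highest of the 8. Its P14 values were 20.5, 24.7, 16.4 and 28.8 CPM in controls, 28.8, 41.5, 95.4 and 13.9 CPM in HIE and 46.8, 52.6, 51.7 and 14.1 CPM in Hypoxia animals. HIE animals 2 and 3 and Hypoxia animals 1 to 3 were above every control, and the last animal of each of these groups was below every control. Camp encodes the precursor of the antimicrobial peptide CRAMP. It read 0.684, 0.957, 8.41 and 9.62 CPM in acute controls and 3.92, 2.19, 3.34 and 9.30 CPM in acute HIE animals, and 6.86, 7.62, 5.49 and 8.13 CPM, 7.74, 11.7, 23.2 and 4.04 CPM and 11.7, 16.4, 13.4 and 3.89 CPM in P14 control, HIE and Hypoxia animals. Ltf, the iron-binding lactoferrin, ran from 4.19 to 27.6 CPM in acute controls and from 13.5 to 34.5 CPM in acute HIE animals. At P14 Ltf was 19.9, 22.4, 14.5 and 25.8 CPM in controls, 25.2, 40.7, 86.8 and 14.9 CPM in HIE and 38.0, 50.5, 41.9 and 12.7 CPM in Hypoxia animals, and again the single highest value was that of HIE animal 3.

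Retnlg, a resistin-like protein of mature neutrophils, and Mmp8, the neutrophil collagenase, were 2 of the lowest of these genes and followed a similar order of animals. Retnlg read 3.28, 2.87, 1.77 and 2.69 CPM in P14 controls, 4.37, 6.72, 11.3 and 1.99 CPM in HIE and 6.17, 9.91, 5.59 and 2.03 CPM in Hypoxia animals. Mmp8 read 3.56, 4.05, 2.84 and 3.90 CPM in P14 controls, 4.68, 7.48, 14.0 and 2.45 CPM in HIE and 7.13, 9.36, 9.15 and 2.26 CPM in Hypoxia animals. In both genes 3 HIE and 3 Hypoxia animals exceeded every control. In the acute experiment Retnlg was 0.727 to 5.18 CPM in controls and 1.92 to 4.88 CPM in HIE animals, and Mmp8 was 0.641 to 4.41 and 2.40 to 4.58 CPM.

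Mmp9, gelatinase B, is made by neutrophils but also by other cells of the brain, and it did not keep that order. It read 52.8, 32.3, 71.5 and 33.1 CPM in acute controls, 41.4, 35.0, 72.3 and 84.8 CPM in acute HIE animals, and 39.5, 28.5, 18.5 and 49.0 CPM, 19.9, 32.7, 48.8 and 48.5 CPM and 47.5, 80.1, 41.7 and 19.3 CPM in P14 control, HIE and Hypoxia animals. The P6H63 controls, lowest for the other neutrophil genes, were within the range of the remaining animals for Mmp9.

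Across the 20 animals, with log2 CPM centred on the mean of each experiment, the pairwise Pearson's r among S100a8, S100a9, Ngp, Camp, Ltf, Retnlg and Mmp8 ran from 0.915 to 0.993 with a median of 0.972. Mmp9 was left out of these 7 genes after its values had been seen. Within P14 alone the same 21 pairs gave 0.945 to 0.992, within the acute experiment 0.877 to 0.997, and in the 6 acute animals without the P6H63 pair 0.688 to 0.993. With the 7 genes, Mmp9 correlated at 0.414 to 0.495 and Ly6c2 at 0.443 to 0.522, although Ly6c2 reached 0.845 to 0.982 in those 6 acute animals. These values describe animals that share groups and name prefixes, and no test was made of them.

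**Figure D2:**
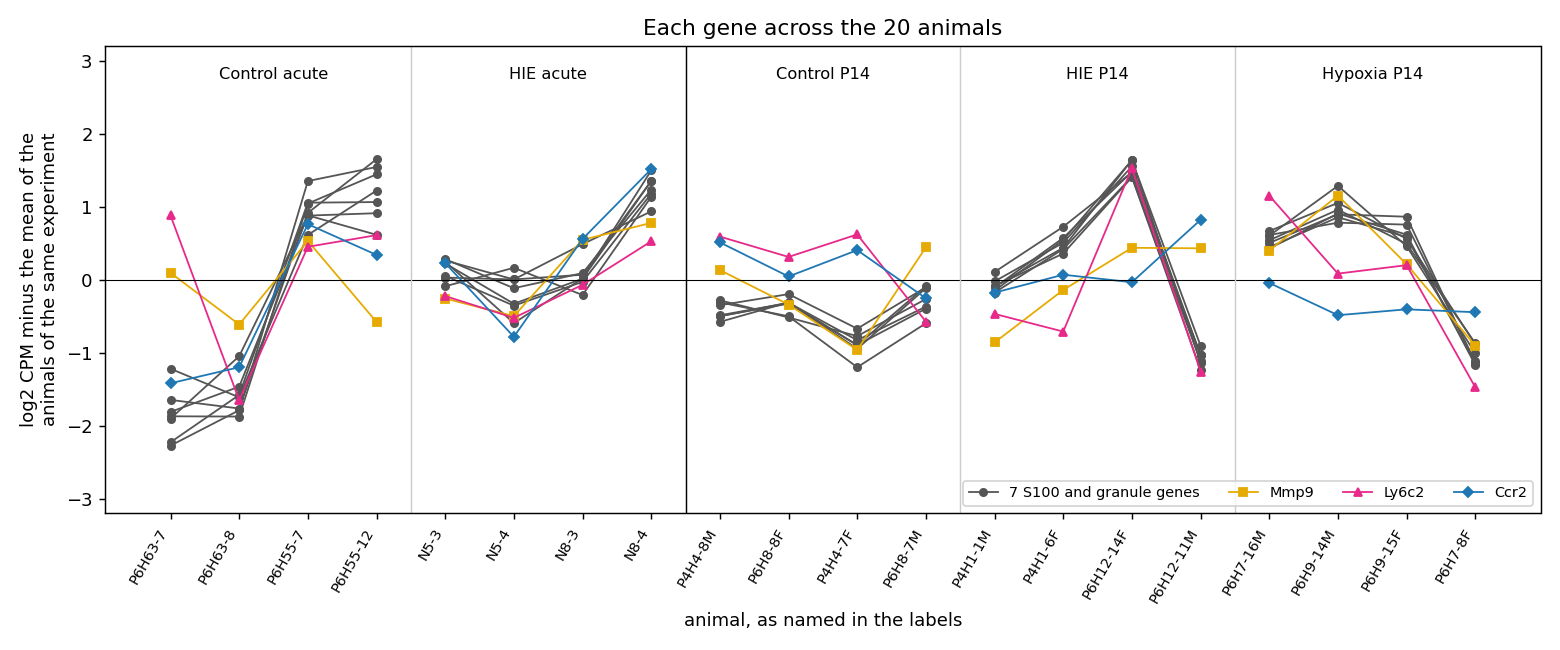
Log2 CPM of each gene minus its mean over the animals of the same experiment, for the 20 animals in group order. The grey lines of the 7 S100 and granule genes run almost on top of each other, from the low P6H63 controls to the peak in P6H12-14F (HIE animal 3 at P14), and Ccr2 and Mmp9 follow other courses.

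All 7 genes were highest in HIE animal 3 at P14 (P6H12-14F) and lowest in 1 of the P6H63 controls. Their summed level was 458 CPM in HIE animal 3 but 74.6 CPM in HIE animal 4, which carries the same name prefix, a ratio of 6.13. In Hypoxia the animals with the prefix P6H7 differed by 2.93 times (231 and 78.8 CPM), and in acute HIE the animals with the prefix N8 by 2.35 times (176 and 75.2 CPM). The other 7 prefixes gave ratios of 1.08 to 1.47.

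The 5 genes outside the set that followed S100a8 most closely over the 20 animals were Cstdc5 (r = 0.981), Stfa3 (0.977), Lcn2 (0.976), Stfa2 (0.969) and Cstdc4 (0.964). Lcn2, lipocalin 2, is a secondary granule protein that binds bacterial siderophores, and the stefin genes Stfa2 and Stfa3 with Cstdc4 and Cstdc5 encode cystatin-type protease inhibitors. Lcn2 ranged from 1.84 to 26.0 CPM and Cstdc5 from 2.49 to 26.1 CPM. The stefin and Cstdc genes are near-identical copies, so the division of reads among them is uncertain.

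Ratios to S100a8 in the same animal differed by experiment for some granule genes. Ngp divided by S100a8 was 1.55 to 2.54 in the 8 acute animals and 0.771 to 1.11 in the 12 P14 animals, with no overlap. Ltf divided by S100a8 was 0.895 to 1.72 and 0.720 to 1.08, and Retnlg divided by S100a8 was 0.145 to 0.307 and 0.0935 to 0.162, with some overlap. Camp and S100a9 showed ratios of like size in both, at 0.220 to 0.360 and 0.222 to 0.337 for Camp and at 1.24 to 1.63 and 1.28 to 1.71 for S100a9. Age and data file coincide here and cannot be told apart.

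**Figure D3:**
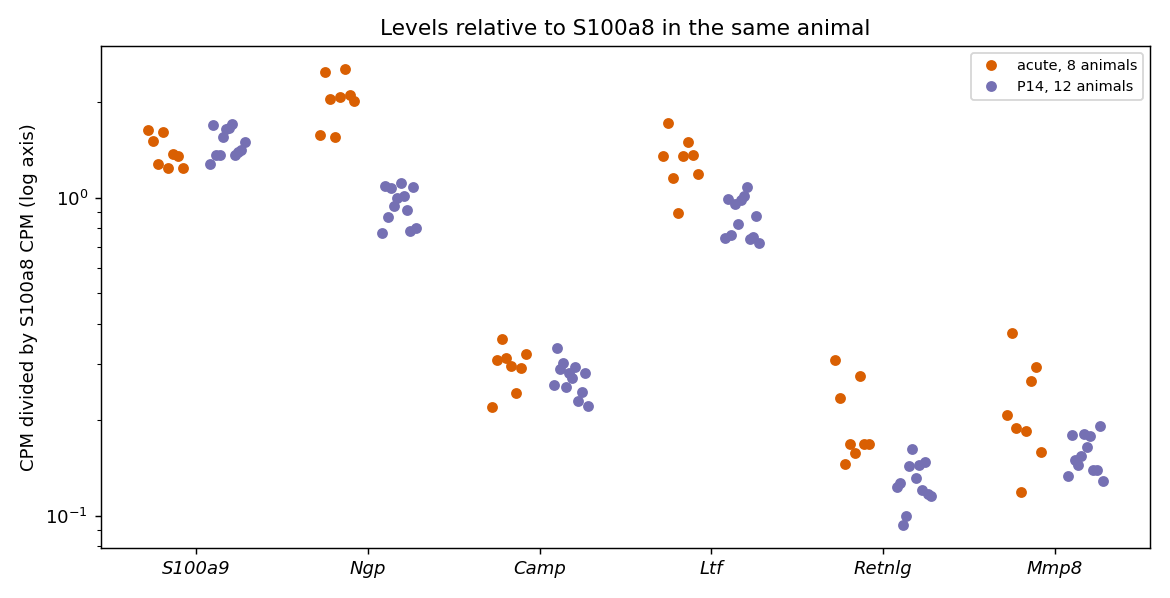
CPM of 6 genes divided by S100a8 CPM in the same animal, on a log axis, for the 8 acute animals and the 12 P14 animals. Ngp is separate between the experiments, at 1.55 to 2.54 against 0.771 to 1.11, whereas Camp and S100a9 lie at like ratios.

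The acute comparison asks whether HIE raised these genes within a day or so of hypoxia. None of the 10 genes was called by the quasi-likelihood test of edgeR at an adjusted p under 0.05, where 0.0666% of 22517 genes were, nor by DESeq2, where 13.4% were. Even at an unadjusted p under 0.05 the count was 0 of 10, against 27.3% of all genes. The log2 fold change was 0.13 ± 0.84 (SE) for S100a8 (adjusted p = 0.922), 0.38 ± 0.79 (SE) for Ngp and 0.47 ± 0.38 (SE) for Mmp9 (adjusted p = 0.404). Intervals were wide: the 95% interval for S100a8 ran from -1.79 to 2.06 and that for Ltf from -1.19 to 2.06. The data thus leave room for differences of a few fold in either direction. The members' median was 0.32, and that of all genes -0.08.

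The acute outcome turned on which controls were used. Against the P6H63 pair alone, 8 of the 10 genes were called higher in HIE, all but Mmp9 and Ly6c2, with log2 fold changes of 2.14 to 2.88 for the 7 S100 and granule genes and 2.28 for Ccr2. In that comparison 58.5% of 23780 genes were called, 27.7% as higher, and the microglia genes were lower in the same controls. Against the P6H55 pair alone, 0 of 10 were called, where 26 of 23274 genes were. The 7 genes' log2 fold changes were then -0.93 to -0.28. With all 4 controls, the median of the 7 genes went from 0.25 to -0.15 without HIE animal 4. The HIE and control groups overlapped for all 10 genes. The share of all genes whose groups overlap was not counted, so this only describes the 10.

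**Figure D4:**
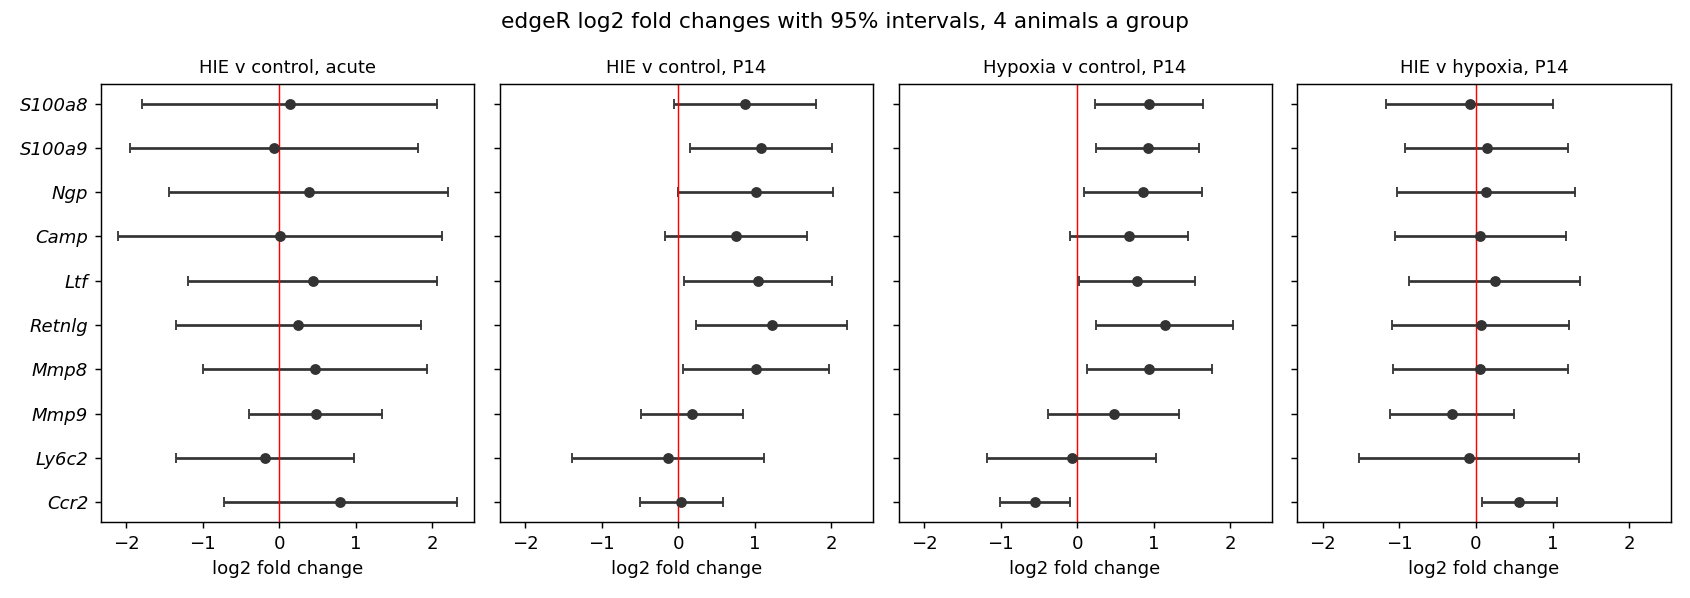
Log2 fold changes of the 10 genes by edgeR, with 95% intervals, in 4 comparisons of 4 animals against 4. The acute intervals all span 0, whereas at P14 those of S100a9, Ltf, Retnlg and Mmp8 lie above 0 in HIE against control before adjustment for the number of genes tested.

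At P14 the neutrophil genes were higher on average in HIE than in control animals, but no gene passed the test. The mean of S100a9 was 70.1 CPM in HIE against 33.7 CPM in controls, and its log2 fold change was 1.08 ± 0.42 (SE) with an adjusted p of 0.414 by edgeR. Retnlg gave 1.22 ± 0.44 (SE) (adjusted p = 0.376), Ltf 1.04 ± 0.43 (SE) and Mmp8 1.02 ± 0.43 (SE). By edgeR 0 of 10 genes were called, against 0.00478% of 20934 genes, and by DESeq2 0 of 10, against 2.34%. At an unadjusted p under 0.05 there were 4 of 10 (S100a9, Ltf, Retnlg and Mmp8), against 9.87% of all genes, and these 4 rise and fall with each other, so they are not 4 separate observations. The median log2 fold change of the 10 genes was 0.94, against 0.01 for all genes. Without HIE animal 3, the median of the 7 S100 and granule genes went from 1.02 to 0.49, and without HIE animal 4 it went to 1.32.

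Hypoxia against control at P14 gave values of similar size. S100a8 had a mean of 46.0 CPM in Hypoxia and 23.8 CPM in control animals, a log2 fold change of 0.94 ± 0.32 (SE) with an adjusted p of 0.475 by edgeR. S100a9 gave 0.92 ± 0.30 (SE), Retnlg 1.14 ± 0.40 (SE) and Mmp8 0.94 ± 0.36 (SE), with adjusted p-values by edgeR of 0.474 to 0.500. None of the 10 genes was called by edgeR, where 0.00955% of 20953 genes were, or by DESeq2, where 0.783% were. At an unadjusted p under 0.05 there were 7 of 10, of which 6 were S100 and granule genes higher in Hypoxia and the remaining gene was Ccr2, lower, against 9.53% of all genes. The 6 rise and fall with each other, so they are not 6 separate observations. Without Hypoxia animal 4 the lowest adjusted p by edgeR among the 7 genes was 0.0801, and with prefix type as covariate it was 0.696. HIE and Hypoxia were compared with the same 4 controls.

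Set directly against Hypoxia, HIE gave log2 fold changes between -0.08 and 0.25 for the 7 S100 and granule genes, and without HIE animal 3 their median went from 0.06 to -0.42. The 95% interval for S100a8 was -1.18 to 1.01 and that for S100a9 -0.93 to 1.21, so the data leave room for differences within these bounds. No gene was called by edgeR (0.00955% of 20949 genes) or DESeq2 (0.0716%), and Ccr2 alone had an unadjusted p under 0.05, where 4.53% of all genes did. The difference between the HIE effects of the 2 experiments was also not called for any of the 10 genes, against 0.00405% of 24693 genes by edgeR and 2.73% by DESeq2. For S100a9 this difference, acute minus P14, was -1.15 ± 0.97 (SE) with an adjusted p of 0.601 by edgeR. At an unadjusted p under 0.05 it was 0 of 10, against 13.9% of genes.

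Of the monocyte genes, Ccr2 was the better measured. It read 2.15, 2.51, 9.74 and 7.28 CPM in acute controls and 6.74, 3.35, 8.46 and 16.4 CPM in acute HIE animals. The P6H63 controls were the lowest, and HIE animal 4, which also had the most Ngp, was the highest of the 8. At P14 Ccr2 was 22.7, 16.5, 21.1 and 13.4 CPM in controls, 14.1, 16.7, 15.6 and 28.2 CPM in HIE and 15.48, 11.4, 12.0 and 11.7 CPM in Hypoxia animals. Of the 4 Hypoxia animals, 3 were below every control, and 3 of the 4 HIE animals were within the control range while animal 4 was above it. Controls 1 and 3, at 22.7 and 21.1 CPM, carry the prefix P4H4, and controls 2 and 4, at 16.5 and 13.4 CPM, the prefix P6H8. All 4 Hypoxia animals carry P6H prefixes, so prefix type and treatment are not balanced here.

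The log2 fold change of Ccr2 was 0.80 ± 0.66 (SE) in acute HIE (adjusted p = 0.421 by edgeR), 0.04 ± 0.24 (SE) in HIE at P14 (adjusted p = 0.977) and -0.55 ± 0.21 (SE) in Hypoxia at P14 (adjusted p = 0.487). HIE exceeded Hypoxia by 0.57 ± 0.22 (SE), with an unadjusted p of 0.0261 and an adjusted p of 0.999 by edgeR. None of these passed the test. Ccr2 and the 7 neutrophil genes ran in parallel in the acute animals (r of 0.812 to 0.920, and 0.477 to 0.847 without the P6H63 pair). At P14 r was negative but weaker, -0.499 to -0.408 over 12 animals of all groups, and these values were not tested. HIE animal 4 at P14 had the highest Ccr2 of all 20 animals, 28.2 CPM, with 13.8 CPM of S100a8, the lowest of that experiment.

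The 5 genes most like Ccr2 over the 20 animals were Cd209a (r = 0.826), Gm12247 (0.824), Cd74 (0.805), Cd209b (0.797) and Tmem106a (0.796). Cd209a is a lectin of monocyte-derived dendritic cells, and Cd74 is the invariant chain of MHC class II. Cd74 ranged from 11.6 to 234 CPM. These likenesses were lower than those around S100a8.

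Ly6c2, the main gene behind the Ly6C antigen of classical monocytes, was near the low end throughout. It read 2.33, 0.405, 1.73 and 1.94 CPM in acute controls and 1.09, 0.883, 1.21 and 1.83 CPM in acute HIE animals, and 2.87, 2.37, 2.93 and 1.28 CPM, 1.38, 1.17, 5.49 and 0.798 CPM and 4.24, 2.02, 2.19 and 0.688 CPM in P14 control, HIE and Hypoxia animals. Apart from HIE animal 3 at P14, the HIE values were within or below the control range. Its log2 fold changes were -0.19 ± 0.51 (SE), -0.14 ± 0.56 (SE) and -0.07 ± 0.49 (SE) in acute HIE, P14 HIE and P14 Hypoxia, with adjusted p-values by edgeR of 0.818, 0.966 and 0.979. Ly6c2 is uncertain, because 32.0% of the 50-base windows of its transcript also occur in Ly6c1, its endothelial neighbour, and its counts were fractional in 22 of 22 libraries. The counts of Ccr2 were fractional too, whereas no other member had a fractional count. Ly6c1 itself read 77.9, 56.7, 29.3 and 27.4 CPM in acute controls and 22.7, 21.9, 17.6 and 23.1 CPM in acute HIE animals, highest in the P6H63 pair.

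Other genes of these cells, and markers of other cell types the preparation could hold, were read from 15 further lists with 113 genes. None was called by edgeR in the 5 comparisons. In acute HIE against control 30 of 106 tested had an unadjusted p under 0.05, 6 of them higher, against 27.3% of all genes, and DESeq2 called 20, against 13.4%. Endothelial (6), choroid plexus (5) and astrocyte (4) genes made up 15 of the 24 that were lower. For HIE at P14 the count was 24 of 95, 14 higher, against 9.87% of all genes, and DESeq2 called 3, against 2.34%. The other neutrophil genes gave 7 and the other monocyte genes 4 of the 14 that were higher. Genes of the same cell type can rise and fall with each other, so these are not separate observations. Neuron genes gave 5 of the 10 that were lower, and all 3 DESeq2 calls were neuron genes, lower in HIE. For Hypoxia the count was 18 of 94, 12 higher, against 9.53%. There DESeq2 called 1, from the other monocyte genes and higher, against 0.783%.

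The other neutrophil genes (16) showed a median log2 fold change of 0.36 in acute HIE, 0.82 in HIE at P14 and 0.70 in Hypoxia at P14. Of these 16, the count at an unadjusted p under 0.05 was 1, 7 and 3, all higher, where 27.3%, 9.87% and 9.53% of all genes passed. Of the 16, 10 were highest at P14 in HIE animal 3, where the 7 S100 and granule genes also peaked. The 16 genes are thus not separate observations. The most abundant was Csf3r, the receptor for the neutrophil growth factor G-CSF, at 19.8 to 206 CPM. It is also made by microglia, and it was 37.3 and 19.8 CPM in the P6H63 controls and 136, 177, 179 and 201 CPM in P14 HIE animals, where the S100 and granule genes spread 6.13 times between animals 3 and 4. Csf3r was called higher by DESeq2 in acute HIE (log2 fold change 1.63, adjusted p = 0.034) but not by edgeR (adjusted p = 0.151). It was the only gene of the 16 called there, where DESeq2 called 13.4% of all genes. Ly6g, the surface antigen by which mouse neutrophils are usually sorted, was chosen after its values were seen. It read 0.237, 0.407, 2.20 and 0.184 CPM in P14 HIE, 0.534, 0.264, 0.413 and 0.437 CPM in P14 control and 0.494, 0.523, 0.826 and 0.132 CPM in Hypoxia animals. In HIE animal 3 it was the highest of all, and no other animal reached 1 CPM.

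Azurophil granule genes mark the promyelocyte stage, before the secondary granules form. Mpo, myeloperoxidase, was 0.991, 1.73, 1.36 and 1.41 CPM in P14 controls, 1.44, 1.76, 5.50 and 0.709 CPM in HIE and 2.14, 4.40, 4.41 and 0.500 CPM in Hypoxia animals. All 4 genes of this list were highest at P14 in HIE animal 3, as were 7 of the 8 neutrophil genes, 10 of the 16 other neutrophil genes and 5 of the 14 other monocyte genes, whereas 9.06% of 22218 expressed genes were. The animal was picked for its neutrophil genes, so these shares describe it and test nothing. In the acute experiment the order was another: the summed list was highest of all 20 animals in control 3 (11.3 CPM, against 9.37 CPM in HIE animal 3 at P14). Its median log2 fold change in acute HIE was -0.69. DESeq2 called Prtn3, 1 of its 4 genes, lower there, where it called 13.4% of all genes. None of the 9 microglia genes and none of the 5 platelet genes was highest at P14 in HIE animal 3.

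Among the other monocyte genes (14), Fn1 and F13a1 led, and both are also made by cells other than monocytes: F13a1 by border macrophages and Fn1 by the vasculature. Fn1 was highest, at 2942 CPM, in a P6H63 control. DESeq2 called Plac8 and Klra2 higher and Ace lower in acute HIE, 3 of 14 where it called 13.4% of all genes, and edgeR called none of them. These genes are named for their DESeq2 calls, after their values were seen.

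Signals that draw in such cells were measured alongside. Ccl2, the ligand of Ccr2, read 65.8, 43.7, 372 and 312 CPM in acute controls and 155, 218, 412 and 248 CPM in acute HIE animals, so that the P6H55 controls were as high as HIE animals and the P6H63 controls lower. At P14 Ccl2 was 43.7, 56.7, 30.4 and 163 CPM in controls, 35.5, 57.3, 30.8 and 47.0 CPM in HIE and 51.8, 122, 38.3 and 30.0 CPM in Hypoxia animals. Ccl7, another ligand of Ccr2, kept this course, from 10.3 to 338 CPM. Of the 10 chemoattractants, 8 were tested in acute HIE, with a median log2 fold change of 0.80, and 6 at P14, with medians of -0.60 in HIE and -0.49 in Hypoxia. For the endothelial adhesion molecules, led by Icam1 and Pecam1, the median was -0.76 over 6 genes in acute HIE. It was 0.36 and 0.35 over 4 genes in HIE and Hypoxia at P14. Icam1 is also among the genes the paper lists for microglia. DESeq2 called 1 of the 6, Vcam1, lower in acute HIE, where it called 13.4% of all genes.

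Markers of whole blood did not keep the order of the neutrophil genes. Hba-a1, an alpha globin of red cells, was 798, 44.9, 432 and 104 CPM in P14 controls, 182, 66.5, 68.0 and 133 CPM in HIE and 95.4, 20.3, 29.0 and 303 CPM in Hypoxia animals, so that control animals 1 and 3 held the most and HIE animal 3 only 68.0 CPM. In the acute experiment Hba-a1 was 0.849 to 3.64 CPM. Hba-a1 and Hba-a2 are near-identical, and reads may be divided between them, but Hbb-bs ran from 25.3 to 674 CPM at P14 in the same order of extremes. Platelet genes were led by Gp9, 0.579 to 12.1 CPM, which microglia also express. The part of blood left in the vessels in these results was not tested.

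Lymphocyte genes were scarce: Cd79b reached 11.7 CPM and is also known from microglia, and Cd79a, next in the list, did not pass 0.943 CPM. Among genes of eosinophils, basophils and mast cells, Siglecf ran from 4.31 to 53.6 CPM. The sum of this list was lowest in the P6H63 controls (6.38 and 5.19 CPM), as was that of the microglia genes. Which cells the Siglecf reads came from was not tested. Prg2, a major protein of eosinophil granules, was 4.61, 39.9, 14.3 and 2.47 CPM in Hypoxia animals, 6.16, 12.1, 10.1 and 0.865 CPM in HIE and 2.92, 2.35, 2.86 and 4.03 CPM in controls at P14. Its highest value was thus in Hypoxia animal 2, also the highest Hypoxia animal for S100a8, and its log2 fold change in Hypoxia was 2.30 ± 0.72 (SE) with an adjusted p of 0.468 by edgeR.

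Relative to microglia, the 7 S100 and granule genes took 3.10 to 22.9 CPM for every 1000 CPM of the microglia list. The means were 5.65 ± 1.41 (SD, n = 4) in P14 controls, 10.03 ± 8.87 in HIE and 10.1 ± 5.07 in Hypoxia, and 11.4 ± 3.24 in acute controls against 6.03 ± 3.42 in acute HIE animals. On this scale the acute controls had the highest mean of the 5 groups. The P6H63 pair was at 7.67 and 14.9 and the P6H55 pair at 9.86 and 13.2, and all 4 were above acute HIE animals 1 to 3, at 4.81, 3.59 and 4.63, while animal 4 was at 11.1. The part of this difference in cell content in the acute comparison was not tested.

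**Figure D5:**
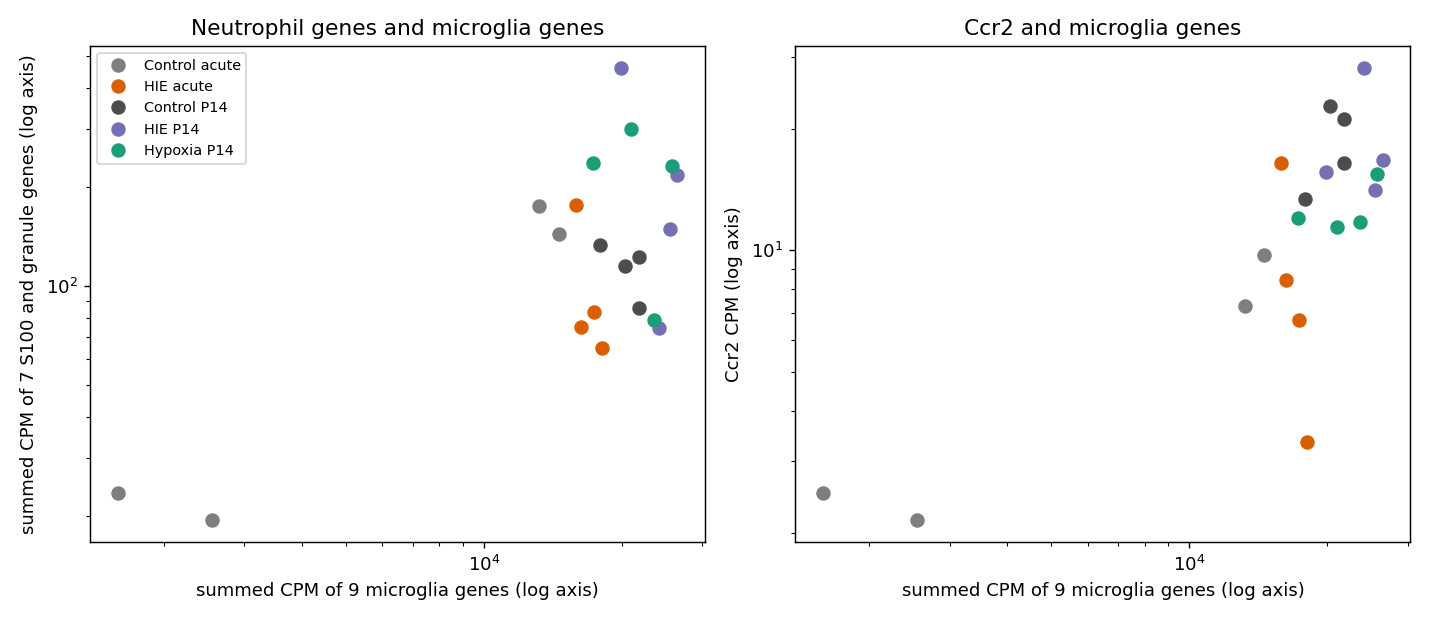
Summed CPM of the 7 S100 and granule genes (left) and CPM of Ccr2 (right) against the summed CPM of 9 microglia genes, on log axes, for 20 animals coloured by group. The 2 P6H63 controls stand apart at 1589 and 2547 CPM of microglia genes, and the other 18 animals, at 13228 to 26457 CPM, differ far more in neutrophil genes than in microglia genes.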

How the data were processed

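RNA of CD11b+ bead-enriched brain cells was sequenced from stranded, ribosome-depleted total RNA libraries. The authors aligned reads to GRCm39 with STAR, ran FastQC and deposited RSEM expected counts per gene, one table per experiment. For this report the expected counts of 2 libraries of the same animal were summed, rounded to whole numbers for the tests, and divided by the library total for CPM. Gene symbols came from GENCODE, which matched 56017 of 56691 identifiers. Each comparison was fitted on its own groups with edgeR 4.0.16 (filterByExpr, TMM, quasi-likelihood F test, R 4.3.3), with Benjamini-Hochberg adjustment over all genes tested and a threshold of 0.05, and the code was tested on simulated data. DESeq2 1.42.0, other scalings, no filter, sex and name prefix type (P4H or P6H, at P14) as covariates, a pooled P14 fit and the omission of each animal were alternatives. Intervals and the floor of 3 counts cover counting or animal spread only as stated. The members and gene lists were chosen with earlier results of these data known. All 10 members were named, with the 2 most abundant genes of each further list where none passed the test, and the 5 genes most correlated with S100a8 and with Ccr2. Of the list genes, 2 had no match. Results for a few genes are not reported here.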

Additional observations from a re-analysis of the deposited data

Results flagged for a closer look

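In 50 groups of 4 animals, 4 held a value far from its group by Dixon's criterion, which chance meets in about 1 in 20 groups. Ngp was 58.5 CPM in acute HIE animal 4 (N8-4), with the nearest animal at 27.5 CPM. Ngp was 14.1 CPM in Hypoxia animal 4 (P6H7-8F), with the nearest at 46.8 CPM. Ly6c2 was 5.49 CPM in P14 HIE animal 3 (P6H12-14F), with the nearest at 1.38 CPM. Ccr2 was 15.5 CPM in Hypoxia animal 1 (P6H7-16M), with the nearest at 12.0 CPM.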

How the results depend on the processing

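No paired analysis was possible because the labels carry no replicate numbers shared between groups. Of 840 member values under alternatives, 757 kept direction and side of the threshold, 76 turned in direction and 7 others passed the threshold, as did S100a9 among the 76, and the cause was not tested. Genes called by DESeq2 numbered 3024 (acute), 490 (P14 HIE), 164 (Hypoxia), 15 (HIE against Hypoxia) and 674 (difference of effects), against 15, 1, 2, 2 and 1 by edgeR. Scaling by library size alone moved the median of all genes from -0.08 to -0.28 in the acute comparison and from -0.04 to -0.20 in the difference of effects. It gave 2 calls for P14 HIE, 0 for the difference, and -0.071 for acute Camp. A single P14 fit gave 0 calls in each comparison. The name prefix type as covariate gave 2, 0 and 5 calls for P14 HIE, Hypoxia and HIE against Hypoxia, 0.35 for Ly6c2 in Hypoxia, and 0.058, 0.012 and 0.37 for S100a8, Mmp9 and Ly6c2 in HIE against Hypoxia. No filter gave 3 calls for P14 HIE and 5 for HIE against Hypoxia. Sex as covariate gave 0.29 for acute S100a9, 1 call each for Hypoxia and HIE against Hypoxia, 0 for the difference, -0.040, -0.077, -0.0060 and -0.10 for Ngp, Camp, Retnlg and Mmp8 in HIE against Hypoxia, and -0.014 and 0.16 for Mmp9 and Ly6c2 in the difference. Acute HIE against the P6H55 controls gave 26 calls, with S100a8 at -0.73, Ngp -0.46, Camp -0.88, Ltf -0.36, Retnlg -0.53 and Mmp8 -0.28. Against the P6H63 controls it gave 13904 calls, 8 of them members, with S100a8 at 2.71, S100a9 2.42, Ngp 2.77, Camp 2.88, Ltf 2.47, Retnlg 2.14, Mmp8 2.19, Ly6c2 0.26 and Ccr2 2.28.

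With each animal left out in turn, calls ran from 10 to 5588 (acute, highest without acute control 3), 0 to 6 (P14 HIE, highest without control 4), 1 to 7 (Hypoxia, highest without control 4 or Hypoxia animal 2), 1 to 3 (HIE against Hypoxia) and 0 to 1200 (difference, 1200 without acute control 3 and 415 without acute control 4). Acute log2 fold changes then ran from -0.35 to 0.77 for S100a8, -0.52 to 0.72 for S100a9, -0.043 to 0.86 for Ngp, -0.57 to 0.58 for Camp and -0.15 to 0.90 for Retnlg. In P14 HIE they ran from -0.0035 to 0.38 for Mmp9, -1.02 to 0.15 for Ly6c2 and -0.20 to 0.16 for Ccr2, and in Hypoxia from -0.60 to 0.23 for Ly6c2. In HIE against Hypoxia they ran from -0.59 to 0.23 for S100a8, -0.38 to 0.45 for S100a9, -0.46 to 0.45 for Ngp, -0.44 to 0.36 for Camp, -0.31 to 0.54 for Ltf, -0.34 to 0.40 for Retnlg, -0.42 to 0.36 for Mmp8, -0.56 to 0.038 for Mmp9 and -0.98 to 0.46 for Ly6c2. In the difference Ly6c2 ran from -0.38 to 0.83.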
